A study of Sus scrofa with 16 samples.

Results

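Chemokine genes were followed in cultured interstitial cells of the pig aortic valve, the resident fibroblasts of the leaflet. The set was chosen by name, with earlier results of these data known, and holds 10 of the 29552 named genes of the count table. Its members are the neutrophil-attracting CXC chemokines AMCF-II, CXCL8 and CXCL2, the interferon-induced CXCL10, the CXC chemokines CXCL12, CXCL14 and CXCL16, and the CC chemokines CCL2, CCL5 and CCL20. All 10 had an entry in the table, and 9 of them passed the filter on low counts.

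The libraries were made from polyA RNA of Sus scrofa valve cells from animals of 5-6 months. Male cells on tissue culture plastic, male cells on gel, female cells on plastic and female cells on gel were represented by 4 libraries each, 16 in all. The gel was a PEG-norbornene hydrogel with an elastic modulus of about 5.8 kPa. All 4 groups were kept for 48 hours in Media 199 with 1% fetal bovine serum, penicillin, streptomycin and amphotericin B. The submitters regard cells on plastic as myofibroblasts and cells on gel as quiescent fibroblasts, and each sex is described as 4 biological replicates. Neither a gene nor a drug was manipulated, so the surface and the sex of the animal are the factors compared. The labels do not say whether a replicate is 1 animal or a pool.

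Chemokines are small secreted proteins that direct the movement of leukocytes through G protein-coupled receptors. They are divided into CXC and CC families by the spacing of their first cysteines, and many of their genes lie in clusters. Stromal cells make several of them under the control of NF-kB, whereas CXCL12 and CXCL14 are usually counted among the homeostatic members. In heart valves, leukocyte infiltration accompanies calcific disease, and valve interstitial cells are among the local sources of chemokines.

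Libraries held between 16.9 and 27.44 M (mega-counts) in total. All 10 fibroblast markers examined were measured, with a summed level of 64300 to 78200 CPM (counts per M) on plastic and 52300 to 62500 CPM on gel. The 12 endothelial markers summed to 198 to 580 CPM on plastic and 156 to 287 CPM on gel. Of 16 leukocyte markers, 12 had a count in at least 1 library and the sum ran from 8.8 to 39.1 CPM on plastic and from 6.21 to 14.6 CPM on gel. The T and B cell markers CD3E, CD2 and MS4A1 and the macrophage marker CD163 were at 0 counts in all 16 libraries, and the pan-leukocyte gene PTPRC had a single count, in male gel 1. Of 4 leukocyte markers tested, 1 fell and 1 rose on plastic in each sex. CD14, a monocyte co-receptor for lipopolysaccharide, was at 3.16 to 4.09 CPM on plastic and 4.91 to 11.3 CPM on gel, with a log2 change of -1.21 in male (edgeR, adjusted p = 0.000257) and -1.40 in female cells (adjusted p = 7.66e-05). LAPTM5, a lysosomal protein of blood cells, was at 3.72 to 33.7 CPM on plastic and 0.565 to 4.97 CPM on gel, with a change of 2.35 in male (adjusted p = 0.0133) and 2.14 in female cells (adjusted p = 0.0176). The part of leukocytes in the chemokine results was not tested. The 5 epithelial markers in the table summed to at most 0.145 CPM on plastic and 0.452 CPM on gel, and the 5 erythroid and platelet markers to at most 2.03 CPM on plastic and 2.16 CPM on gel. In bulk libraries such as these, fewer cells of a type and less RNA per cell cannot be told apart.

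The first comparison asked how chemokine expression differed between cells on plastic and cells on gel in each sex. In male cells, 8 of the 10 chemokines fell on plastic and 0 rose, where 12.9% of all 14530 tested genes were called lower. In female cells the count was also 8 of 10 lower and 0 higher, where 11.3% of tested genes were called lower. The set was chosen with earlier results of these data known, so setting its counts beside these shares is not an independent test. The same holds for the gene lists below. A gene was called at an adjusted p under 0.05 in edgeR's quasi-likelihood test with Benjamini-Hochberg adjustment over all tested genes, and changes are given as log2 with their standard error (SE). The median change of the 9 tested chemokines was -4.56 in male and -4.13 in female cells, beside -0.03 and -0.04 over all tested genes. CCL5 and CCL20 passed the filter through the gel libraries: none of the 4 male plastic libraries and only 1 of the 4 female plastic libraries reached the minimum of 0.404 CPM for these genes, so their direction was partly fixed by the filter. Replicates are biological per the series text, but nothing states that each came from its own culture, and p-values measure the spread between these libraries.

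**Figure D1:**
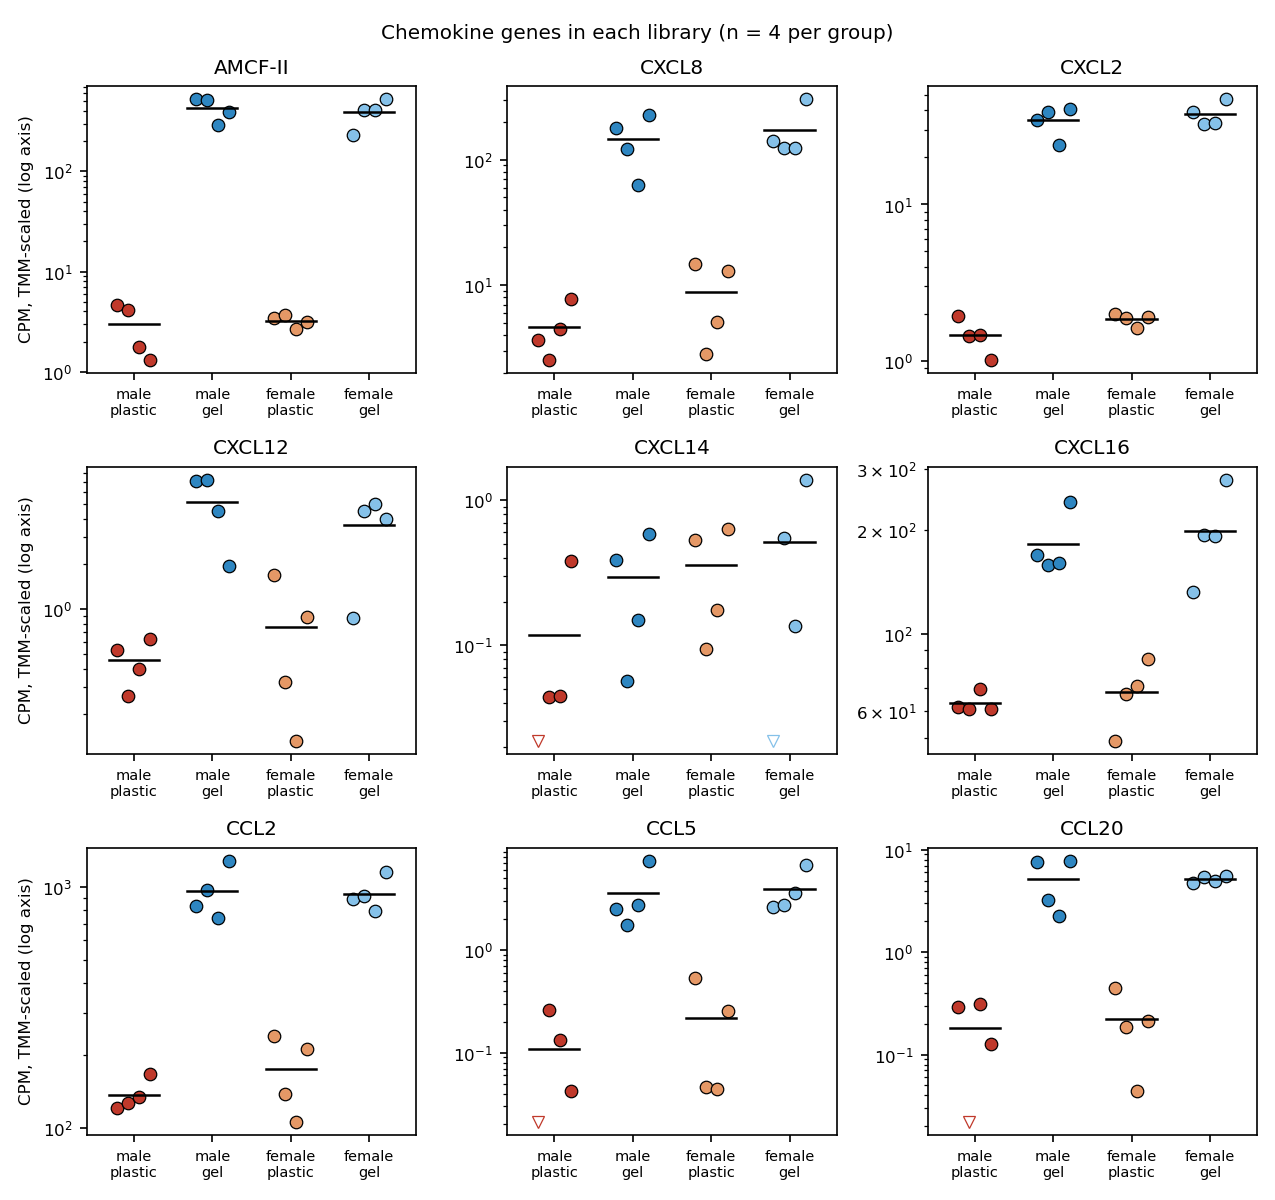
CPM (TMM-scaled, log axis) of 9 chemokine genes in each of the 16 libraries, in the order male plastic, male gel, female plastic and female gel, with points ordered by replicate number and a line at the group mean. Open triangles mark libraries at 0 counts, drawn at an arbitrary low position; plastic and gel points are fully apart for AMCF-II, CXCL8, CXCL2, CXCL16, CCL2, CCL5 and CCL20 and mixed for CXCL14.

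The neutrophil-attracting CXC chemokines signal through CXCR1 and CXCR2, and their genes share a cluster on chromosome 8 of Sscrofa11.1. AMCF-II (chromosome 8, 70008225 to 70010360), first known as a chemotactic factor of porcine alveolar macrophages and listed by RefSeq with the synonym CXCL6, showed the deepest change of the 9 tested members in both sexes. Its level was 4.64, 4.16, 1.78 and 1.31 CPM in male plastic 1 to 4, against 528, 520, 291 and 394 CPM in male gel 1 to 4. In females it was 3.42, 3.69, 2.68 and 3.16 CPM on plastic, against 233, 409, 408 and 524 CPM on gel. Every plastic library thus lay at or below 4.64 CPM and every gel library at or above 233 CPM, with no overlap. The log2 change was -7.20 in male cells (SE 0.39, adjusted p = 6.03e-09), a level 147-fold lower on plastic. In female cells it was -6.92 (SE 0.39, adjusted p = 6.34e-09), a level 121-fold lower.

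CXCL8 (interleukin-8; chromosome 8, 69932646 to 69935861) also fell on plastic, with a wide spread between libraries. Male plastic libraries 1 to 4 had 3.63, 2.54, 4.48 and 7.78 CPM, against 178, 122, 62.5 and 226 CPM in male gel libraries. Female plastic libraries 1 to 4 had 14.7, 2.85, 5.1 and 12.9 CPM, against 141, 124, 123 and 304 CPM in female gel libraries. The surfaces did not overlap, although female plastic 1 and 4 held the highest plastic values and male gel 3 the lowest gel value. CXCL8 fell in both sexes, by -4.99 on the log2 scale for male cells (SE 0.56, adjusted p = 9.4e-06) and -4.28 for female cells (SE 0.54, adjusted p = 2.74e-05). Its coefficient of variation within a group was 48.1% to 65.2%.

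CXCL2 (macrophage inflammatory protein 2, also called GRO2; chromosome 8, 70157253 to 70159145) had the least variable change of these 3 genes. It was at 1.93, 1.44, 1.46 and 1.01 CPM in male plastic 1 to 4, against 34.6, 39, 23.9 and 40.6 CPM on male gel. Female levels were 2, 1.87, 1.63 and 1.9 CPM on plastic and 39.2, 32.6, 33.4 and 47.3 CPM on gel. The groups were far apart and tight, and the change was -4.56 in male (SE 0.21, adjusted p = 1.15e-09) and -4.36 in female cells (SE 0.21, adjusted p = 1.79e-09).

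The fall extended to unnamed neighbours of these genes in the cluster, which spans 226.5 kilobases from the start of CXCL8 to the end of CXCL2. LOC100525396, a protein-coding locus between AMCF-II and CXCL2 (70054796 to 70057033), averaged 1.36 CPM on plastic and 53.5 CPM on gel in male cells, a change of -5.30 (SE 0.29, adjusted p = 6.03e-09). In female cells it averaged 1.87 CPM on plastic and 68.1 CPM on gel, a change of -5.19 (SE 0.28, adjusted p = 6.34e-09). The pseudogene LOC102157763 next to CXCL2 changed by -4.16 in male (SE 0.33, adjusted p = 3.24e-07) and -4.13 in female cells (SE 0.32, adjusted p = 2.66e-07). PPBP, the platelet basic protein gene beside AMCF-II, had at most 4 counts in any library and was not tested. Beyond CXCL2, MTHFD2L, a mitochondrial folate enzyme, changed by -0.91 in male (SE 0.33, adjusted p = 0.0495) and -0.48 in female cells (SE 0.32, adjusted p = 0.308), and the male call was lost in 21 of 25 alternatives, with adjusted p of 0.00514 to 0.153 over all of them. EREG and AREG, growth factor genes farther along, were not called in either sex (EREG -2.94, SE 1.42 in male and -3.20, SE 1.42 in female cells; AREG -2.33, SE 0.90 and -2.31, SE 0.89). Both were called with the replicate as a block: EREG then changed by -2.48 in male (adjusted p = 0.00131) and -3.04 in female cells (adjusted p = 0.00047), and AREG by -2.02 (adjusted p = 0.000167) and -2.13 (adjusted p = 0.000114). Whether AMCF-II, CXCL2, LOC100525396 and LOC102157763 are alike enough in sequence to share reads was not tested, and the split of counts among them is uncertain to that extent.

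**Figure D2:**
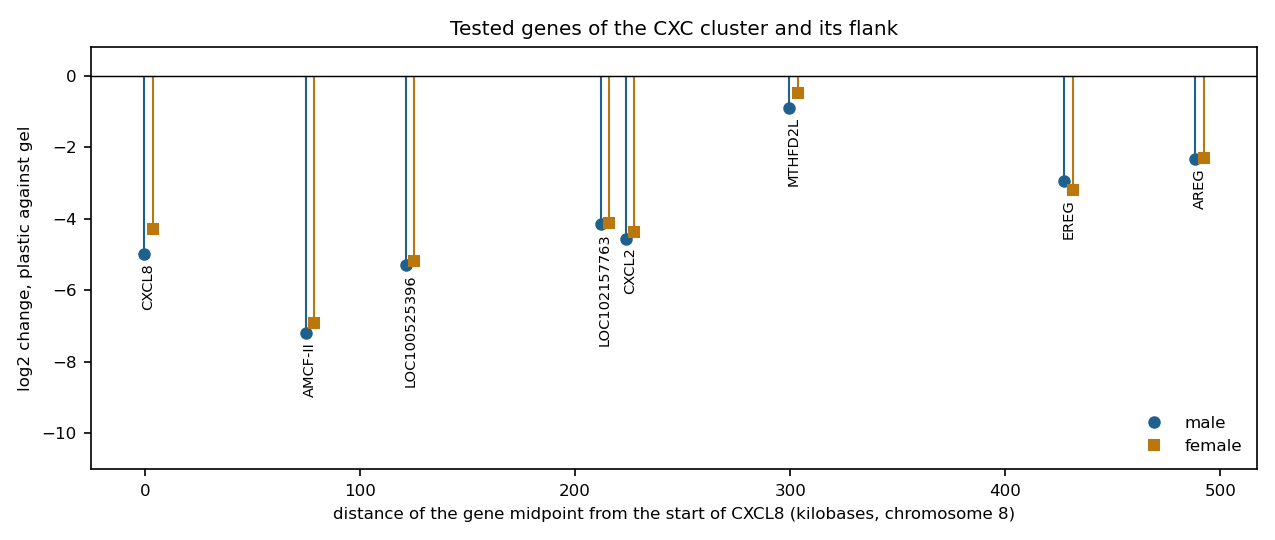
Log2 change, plastic against gel, of the tested genes from CXCL8 to AREG against the distance of the gene midpoint from the start of CXCL8 in kilobases, for male (circles) and female (squares) cells. The CXC chemokine genes and LOC loci lie between -4.13 and -7.20, while MTHFD2L lies at -0.91 and -0.48; EREG and AREG, growth factor genes of the EGF family, have wide errors and were not called.

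CXCL10, an interferon-induced ligand of CXCR3 that attracts T cells (chromosome 8, 71693641 to 71695948), was near the limit of detection. It had 0, 0, 0 and 1 counts in male plastic 1 to 4, against 1, 0, 0 and 5 counts on male gel. In female cells it had 5, 0, 0 and 0 counts on plastic and 0, 3, 2 and 6 counts on gel. It did not pass the filter, and a difference between the surfaces was not detectable at this depth. Its span lies within that of ART3, so reads of the overlapping genes cannot be told apart without a stated strand setting. The related CXCR3 ligand genes CXCL9 and CXCL11 were at 0 counts in all 16 libraries. CXCL11 also lies within the span of ART3, so the same limit holds for its counts.

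CXCL12 (stromal cell-derived factor 1, the ligand of CXCR4 and of the scavenging receptor ACKR3; chromosome 14, 91516383 to 91543857) also fell on plastic in both sexes, and was weakly expressed on either surface. In male plastic 1 to 4 it was at 0.532, 0.262, 0.399 and 0.634 CPM, against 7.15, 7.23, 4.47 and 1.93 CPM on male gel. In female plastic 1 to 4 it was at 1.69, 0.327, 0.132 and 0.886 CPM, against 0.865, 4.53, 5.03 and 3.99 CPM on female gel. The male groups did not overlap, whereas the female groups did: female 1 was the highest female library on plastic and the lowest on gel. The change was -3.49 in male (SE 0.67, adjusted p = 0.00103) and -2.24 in female cells (SE 0.63, adjusted p = 0.0156). The female call was lost with limma-voom (adjusted p = 0.0557). Over 25 alternatives the adjusted p was 0.000167 to 0.0557, lowest in the fit without male 4, female 1 and female 4. Without female plastic 1 the change was -2.96.

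CXCL14, a chemokine with no settled receptor (chromosome 2, 137803988 to 137813118), was not called in either sex. Its level was 0 to 0.38 CPM on male plastic and 0.0565 to 0.583 CPM on male gel, with at most 13 counts in a male library. On female plastic it was 0.0935 to 0.633 CPM, against 0 to 1.38 CPM on female gel. The change of -1.27 in male cells had a 95% interval of -3.71 to 1.16, and that of -0.50 in female cells one of -2.54 to 1.54. These intervals hold both no change and a change of the size seen in CXCL16.

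CXCL16 (chromosome 12, 52145100 to 52150267) is made as a transmembrane protein that binds CXCR6 and oxidised lipoproteins and can be shed by proteases. It showed the smallest fall among the 8 called members. Male plastic libraries 1 to 4 had 61.7, 60.6, 69.4 and 60.9 CPM, against 169, 158, 160 and 241 CPM in male gel libraries. Female plastic libraries 1 to 4 had 49.1, 67.1, 70.6 and 84.6 CPM, against 132, 193, 192 and 278 CPM in female gel libraries. No plastic value reached any gel value. The change was -1.53 in male (SE 0.20, adjusted p = 4.37e-05) and -1.55 in female cells (SE 0.20, adjusted p = 4.17e-05), a level 2.89-fold and 2.93-fold lower on plastic.

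Among CC chemokines, CCL2 (monocyte chemoattractant protein 1, a ligand of CCR2; chromosome 12, 40798109 to 40800013) stayed well measured on both surfaces. It was at 121, 127, 134 and 167 CPM in male plastic 1 to 4, against 833, 974, 743 and 1280 CPM on male gel. Female levels were 242, 139, 106 and 213 CPM on plastic and 887, 919, 794 and 1150 CPM on gel. Each gel library lay at or above 743 CPM and each plastic library at or below 242 CPM. In male cells the log2 change was -2.80 (SE 0.24, adjusted p = 6.48e-07), and in female cells it was -2.42 (SE 0.24, adjusted p = 2.62e-06). Its neighbour CCL11 (eotaxin, an eosinophil attractant) changed by -0.42 in male (SE 0.96) and 0.87 in female cells (SE 0.97) and was not called in either.

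CCL5 (RANTES, a T cell and monocyte attractant; chromosome 12, 39652731 to 39659121) lies 1139 kilobases from CCL2. It had 0, 0.262, 0.133 and 0.0423 CPM in male plastic 1 to 4, against 2.49, 1.75, 2.76 and 7.36 CPM on male gel. In female libraries it had 0.533, 0.0468, 0.044 and 0.253 CPM on plastic, against 2.6, 2.76, 3.6 and 6.81 CPM on gel. The surfaces did not overlap, and libraries of number 4 were highest on gel in both sexes. The change was -4.95 in male (SE 0.76, adjusted p = 0.000167) and -4.13 in female cells (SE 0.69, adjusted p = 0.000378), resting on 10 counts in all 4 male plastic libraries and 20 in all 4 female plastic libraries. Without single libraries the value moved by over 1.5 times: to -5.79 without male plastic 2 and -4.34 without male gel 4 in male cells, and to -5.00 without female plastic 1 in female cells, each still called.

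CCL20 (a ligand of CCR6 that attracts T helper 17 and dendritic cells; chromosome 15, 129172743 to 129176069) also fell on plastic in both sexes, with no overlap. It was at 0.29, 0, 0.311 and 0.127 CPM in male plastic 1 to 4, against 7.65, 3.22, 2.27 and 7.76 CPM on male gel. Female levels were 0.444, 0.187, 0.044 and 0.211 CPM on plastic and 4.79, 5.39, 4.96 and 5.51 CPM on gel. Its female gel values were the tightest of any group, with a coefficient of variation of 6.6%, while male gel 2 and 3 were below male gel 1 and 4. The change was -4.83 in male (SE 0.60, adjusted p = 2.22e-05) and -4.51 in female cells (SE 0.58, adjusted p = 3.48e-05).

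Counted by non-overlap of the groups, 8 chemokines were lower in every male plastic library than in any male gel library, and 7 in female cells, where 14% of tested genes were so in each sex. Taking libraries of the same sex and replicate number as pairs, a pairing that the labels do not state, AMCF-II, CXCL8, CXCL2, CXCL16, CCL2, CCL5 and CCL20 were lower on plastic in 8 of 8 pairs. The share of all tested genes lower in 8 of 8 pairs was not computed. For CCL5 and CCL20 the direction was partly fixed by the filter, in the pairs as in the counts of non-overlap. The paired log2 difference of AMCF-II ran from -8.15 to -6.06, that of CXCL2 from -5.21 to -3.95 and that of CXCL16 from -1.98 to -1.21, so these ranges were apart from each other. CXCL12 was lower on plastic in 7 of 8 pairs, with female 1 at 0.90 and the others between -4.57 and -1.49. CXCL14 was lower in 6 of 8 pairs. By the root-mean-square difference of their centred log2 CPM over the 16 libraries, the most alike members were CXCL2 and CCL20 (0.62), CXCL16 and CCL2 (0.67) and CXCL8 and CCL20 (0.70), and the least alike were AMCF-II and CXCL14 (3.52).

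The second comparison asked whether chemokine expression differed between female and male cells on each surface. No difference was called: 0 of 9 tested chemokines passed on gel, where 0.103% of tested genes were called in either direction, and 0 of 9 on plastic, where 0.124% were. edgeR's quasi-likelihood test gave 0 of the 9 an unadjusted p under 0.05 on either surface, and DESeq2 and limma-voom also called 0. On gel, CCL2 averaged 938 ± 153 CPM in female cells and 957 ± 235 CPM in male cells (SD, n = 4 each), and AMCF-II averaged 394 ± 120 CPM in female cells and 434 ± 113 CPM in male cells. The 95% interval of the female minus male log2 difference on gel was -0.50 to 0.45 for CCL2, -0.22 to 0.51 for CXCL2 and -0.75 to 0.47 for AMCF-II. On plastic CXCL8 averaged 8.89 ± 5.79 CPM in female cells and 4.61 ± 2.26 CPM in male cells, a difference of 0.95 (SE 0.52, adjusted p = 0.98) with an interval of -0.16 to 2.05. For CXCL16 the interval was -0.29 to 0.55 on gel and -0.32 to 0.53 on plastic, and for CXCL14 on plastic it was -0.86 to 3.95.

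**Figure D3:**
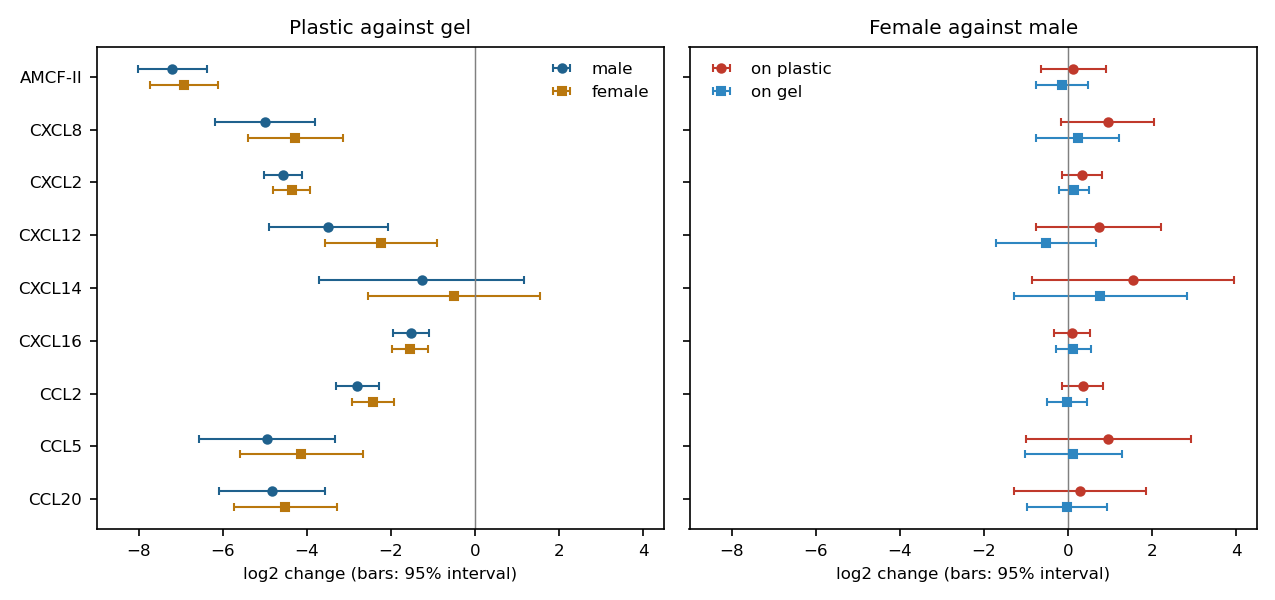
Log2 changes of the 9 tested chemokines with 95% intervals (bars): left, plastic against gel in male (circles) and female (squares) cells; right, female against male on plastic (circles) and on gel (squares), on the same axis. All surface intervals except those of CXCL14 lie below 0, and every interval of the sex differences includes 0.

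The surface changes of the sexes were compared directly as a difference of differences. Again 0 of 9 chemokines were called by edgeR, DESeq2 or limma-voom, with 0 of 9 at an unadjusted p under 0.05 by edgeR; 0% of all tested genes were called, while 633 of 14530 had an unadjusted p under 0.05. The female minus male difference of the log2 change was 0.27 (SE 0.46) for AMCF-II, 0.72 (SE 0.69) for CXCL8, 0.20 (SE 0.28) for CXCL2 and 0.38 (SE 0.32) for CCL2. For CXCL16 it was -0.02 with an interval of -0.62 to 0.57, and for CXCL12 it was 1.26 with one of -0.65 to 3.16. Fold differences between the sexes within these intervals cannot be told from none with 4 libraries a group.

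Differences among libraries of a group were shared by many members. Male gel 4 was the highest male gel library for 8 of 10 chemokines, and female gel 4 the highest female gel library for 9 of 10. These include CXCL10, at 5 and 6 counts. CXCL12 was instead lowest in male gel 4, at 1.93 CPM. On plastic, male plastic 4 was the highest of its group for 5 of 10 and female plastic 1 for 7 of 10. AMCF-II and CXCL2 were instead lowest in male plastic 4, and CXCL16 in female plastic 1. How often these libraries were highest over all tested genes was not tested. CDH5 (VE-cadherin, a junction protein of endothelial cells) was at 23.5, 21, 42.3 and 87.9 CPM in male plastic 1 to 4 and 7.51, 4.97, 11.2 and 44.8 CPM in male gel 1 to 4. It was at 174, 32.1, 24.1 and 88.8 CPM in female plastic 1 to 4 and 20.3, 9.45, 6.76 and 47.1 CPM in female gel 1 to 4. The 3 plastic libraries with the highest CDH5, female 1, female 4 and male 4, were also the 3 highest for CXCL8 and CCL2. The myofibroblast genes ACTA2, TAGLN and CNN1 together were lowest there, at 15200, 20500 and 21900 CPM in those 3 plastic libraries against 25700 to 29500 CPM in the other 5. The 12 endothelial markers together were highest in the same 3, at 580, 444 and 338 CPM against 198 to 280 CPM in the other 5. Not every marker followed this. VWF (von Willebrand factor) was lowest on plastic in female 4 and male 4, at 0.253 and 0.254 CPM. ROBO4 and CLDN5 were lowest on plastic in female 4, at 0.0844 and 0.127 CPM, but highest in female 1, at 10.7 and 2.53 CPM. ERG made up much of the sum. It was at 181, 252 and 150 CPM in female 1, female 4 and male 4, against 131 to 166 CPM in the other 5. On gel, male 4 and female 4 were highest for CDH5, CXCL8 and CCL2. Female gel 1 had more CDH5 than male gel 1 but less CXCL8, at 141 against 178 CPM.

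Without the 6 libraries of male 4, female 1 and female 4, 8 of 10 chemokines were still called lower in each sex, where 9.74% of the 14714 genes tested in that fit were lower in male and 5.32% in female cells. That fit kept 3 male and 2 female libraries on each surface. The changes were then -6.98 in male and -6.99 in female cells for AMCF-II, -5.08 and -4.93 for CXCL8, and -2.73 and -2.80 for CCL2. CXCL12 in female cells was then at -4.35, with an adjusted p of 0.000167 in edgeR's quasi-likelihood test. Its paired differences in the omitted female 1 and female 4 were 0.90 and -2.07, against -3.49 and -4.57 in the female pairs kept. The deeper change thus followed from the choice of libraries, made after seeing the data, and is no independent support. The part of endothelial cells in the spread between libraries was not tested.

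**Figure D4:**
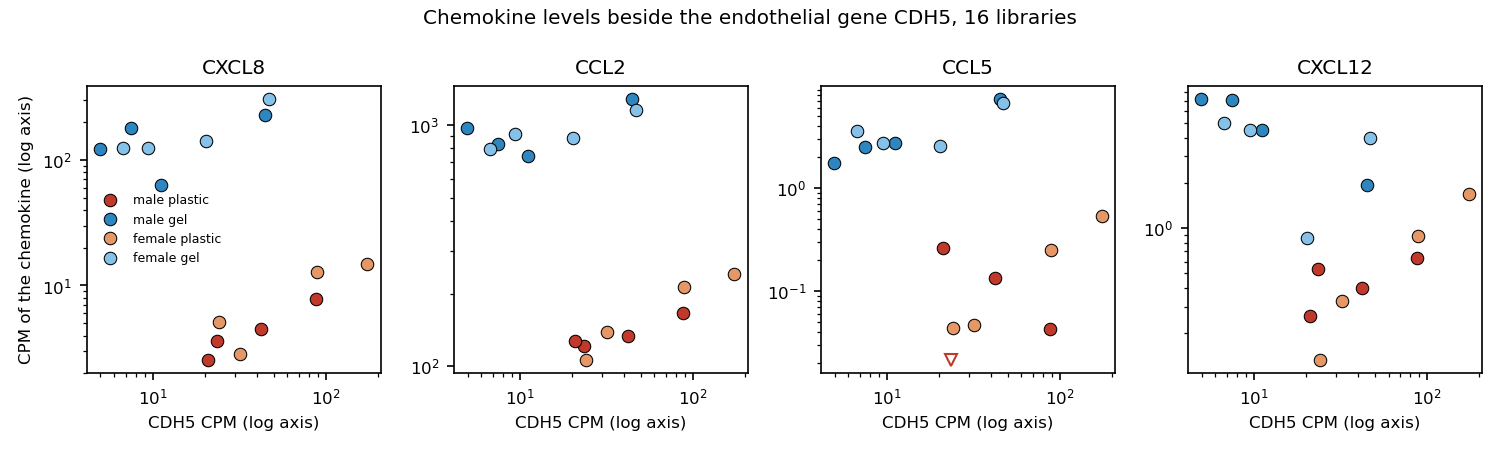
CPM of CXCL8, CCL2, CCL5 and CXCL12 against CPM of CDH5 in 16 libraries (both axes logarithmic), coloured by group; the open triangle marks a library at 0 counts, drawn at an arbitrary low position. Plastic and gel libraries form separate groups for CXCL8, CCL2 and CCL5, and the 3 plastic libraries with the highest CDH5 have the highest CXCL8 and CCL2 on plastic.

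Most receptors for these ligands were scarcely measured in the same cells. Of 23 receptor genes listed, 22 were in the table, and CXCR1, which was not, could not be assessed. Of the 22, 6 were at 0 counts in all libraries and 15 never exceeded 12 counts. CXCR2, the neutrophil receptor of the CXC chemokines above, had at most 4 counts, CCR2 and CCR6 at most 1 and CXCR6 at most 12, while CXCR3 was at 0. In each sex 0 of 6 tested receptors were called by edgeR, DESeq2 and limma-voom, where edgeR called 25.8% of all tested genes in either direction in male and 23.9% in female cells, with 0 at an unadjusted p under 0.05 in male and 1 in female cells. ACKR3, the scavenging receptor for CXCL12, averaged 68.4 CPM on plastic and 87.3 CPM on gel in male cells (-0.35, SE 0.22, adjusted p = 0.259). In female cells ACKR3 averaged 73.4 CPM on plastic and 105 CPM on gel (-0.52, SE 0.22, adjusted p = 0.104), and was called lower there with the replicate as a block in edgeR (adjusted p = 0.0221). Without male gel 2 it was called lower in both sexes by edgeR, at -0.55 in male (adjusted p = 0.0374) and -0.52 in female cells (adjusted p = 0.0296). Male gel 2 had the lowest total of all libraries, 16.9 M, and the fewest genes with a count, 15476. Its ACKR3 level was 49.1 CPM, against 66.7 to 120 CPM in the other male gel libraries. On plastic, CXCR4 stood at 7.99 CPM for female 1, 3.84 CPM for female 4 and 3.51 CPM for male 4, the libraries high in CDH5, against 0.22 to 2.8 CPM in the other plastic libraries.

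Of 32 other chemokine genes listed, 22 were in the table, 7 of those were at 0 counts throughout and 3 were tested. CX3CL1 (fractalkine, a membrane-bound chemokine that binds CX3CR1) fell on plastic in both sexes. It had 13.6, 16.8, 20.1 and 13.8 CPM in male plastic 1 to 4, against 80.3, 85.3, 139 and 148 CPM on male gel. Female plastic libraries had 18.3, 16.1, 13.9 and 12.7 CPM, against 122, 113, 86.3 and 128 CPM on female gel. The groups did not overlap, and the change was -2.81 in male (SE 0.21, adjusted p = 1.97e-07) and -2.88 in female cells (SE 0.22, adjusted p = 1.56e-07). Its receptor CX3CR1 was at 0 counts in all 16 libraries. CCL11 and CCL25 were not called, but CCL11 was called lower in male cells without male plastic 4 (-3.69, adjusted p = 0.0196), the library with 29 of its counts.

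Genes that shed, trim or hold chemokines moved in both directions. Of 22 tested, 4 rose and 10 fell in male cells and 4 rose and 11 fell in female cells, where 12.9% and 12.7% of all tested genes rose and 12.9% and 11.3% fell; their median change was -0.55 in male and -0.65 in female cells. Heparan sulfate proteoglycans, which present chemokines at cell surfaces, were divided. SDC2 (syndecan-2) rose by 1.21 in male (SE 0.17, adjusted p = 8.17e-05) and 1.24 in female cells (SE 0.17, adjusted p = 7.51e-05), and HSPG2 (perlecan) by 1.52 (SE 0.20) and 1.24 (SE 0.20). SDC4 (syndecan-4) fell, with -1.04 in male (SE 0.11, adjusted p = 3.77e-06) and -1.23 in female cells (SE 0.11, adjusted p = 8.05e-07). SULF2, an enzyme that removes sulfate groups from heparan sulfate, averaged 367 CPM on plastic and 80.8 CPM on gel in male cells (2.18, SE 0.29), and 346 CPM on plastic and 85 CPM on gel in female cells (2.03, SE 0.28). SULF1, of the same list, went the other way. It averaged 69.3 CPM on plastic and 188 CPM on gel in male cells (-1.44, SE 0.29). In female cells it averaged 107 CPM on plastic and 193 CPM on gel (-0.85, SE 0.28), and it was called lower in both sexes. VCAN (versican, a chondroitin sulfate proteoglycan) changed by -1.83 in male (SE 0.24) and -1.51 in female cells (SE 0.24). ADAM17, a sheddase of membrane proteins, fell by 0.85 on the log2 scale in male cells and by 0.66 in female cells. ADAM10, another such sheddase, was not called (-0.29, SE 0.13 in male and -0.21, SE 0.13 in female cells).

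Cytokine and NF-kB input genes mostly fell with the chemokines. Of 25 tested, 13 fell and 1 rose in male cells and 16 fell and 1 rose in female cells, with medians of -0.60 and -0.58. Over all tested genes, 12.9% fell and 12.9% rose in male cells, and 11.3% fell and 12.7% rose in female cells. TNFAIP3 (A20, a feedback inhibitor of NF-kB) averaged 17.5 CPM on plastic and 152 CPM on gel in male cells (-3.12, SE 0.20, adjusted p = 2e-08), and 18.4 CPM on plastic and 146 CPM on gel in female cells (-2.98, SE 0.19). NFKBIA, the inhibitor that retains NF-kB in the cytoplasm and is itself an NF-kB target, changed by -2.58 (SE 0.16) in male and -2.60 (SE 0.16) in female cells. CEBPD, a transcription factor of the acute-phase response, changed by -2.40 (SE 0.14) in male and -2.54 (SE 0.14) in female cells. The gene that rose in both sexes was REL, a subunit of NF-kB, by 0.81 in male (SE 0.21, adjusted p = 0.00858) and 1.32 in female cells (SE 0.21, adjusted p = 0.000214). RELA, the subunit that most often activates chemokine genes, was not called (0.16, SE 0.11 in male and 0.03, SE 0.11 in female cells). Among cytokines that induce chemokine genes, TNF and IL1B had at most 4 and 7 counts in any library, whereas IL1A was measured and fell. IL1A averaged 2.73 CPM on plastic and 18.7 CPM on gel in male cells (-2.77, SE 0.43, adjusted p = 0.00018), and 2.6 CPM on plastic and 21.3 CPM on gel in female cells (-3.03, SE 0.43, adjusted p = 9.3e-05). IL1R1, the receptor of both interleukin-1 forms, changed by -1.30 (SE 0.16) in male and -1.04 (SE 0.16) in female cells.

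Interferon input genes were lower or not called. Of 18 tested, 11 fell and 0 rose in male cells, and 8 fell and 0 rose in female cells, where 12.9% and 11.3% of all tested genes fell; the medians were -0.53 and -0.41. IRF1, a transcription factor that interferons and NF-kB induce, averaged 7.4 CPM on plastic and 23.6 CPM on gel in male cells (-1.67, SE 0.13, adjusted p = 3.24e-07), and 7.81 CPM on plastic and 23.2 CPM on gel in female cells (-1.57, SE 0.13). The interferon receptor chains IFNAR2 and IFNGR2 changed by -1.32 (SE 0.10) and -0.80 (SE 0.10) in male cells and by -1.20 (SE 0.10) and -0.97 (SE 0.10) in female cells.

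**Figure D5:**
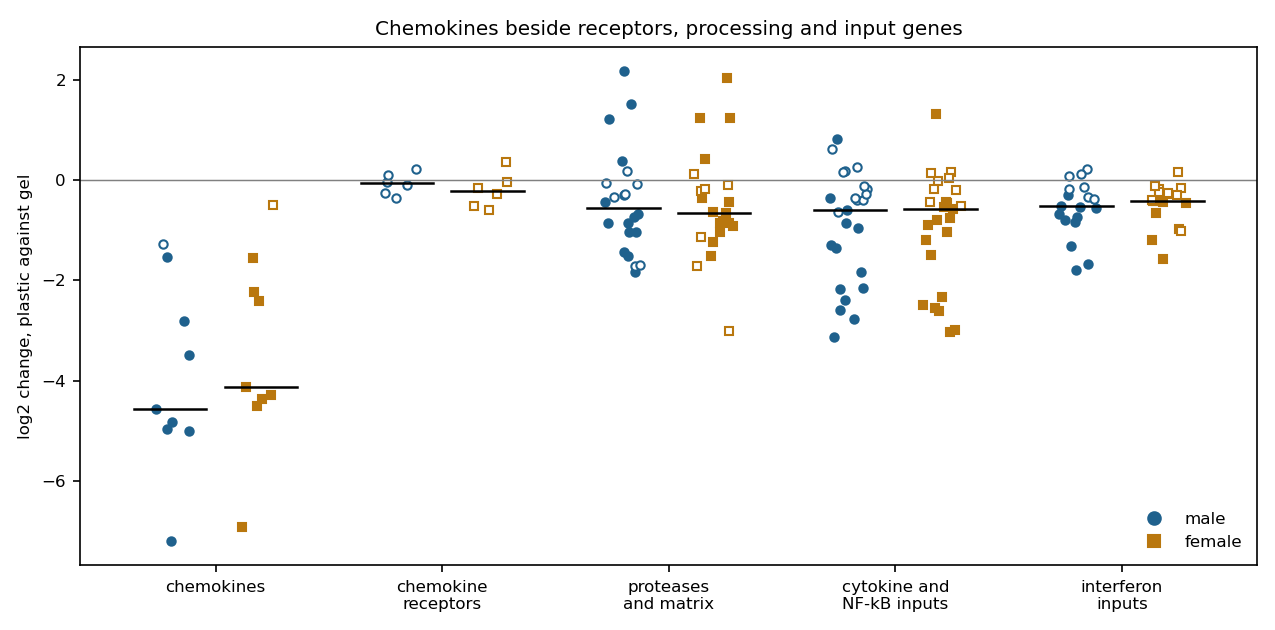
Log2 change, plastic against gel, of each tested chemokine, chemokine receptor, protease or matrix gene, cytokine or NF-kB input and interferon input, for male (circles) and female (squares) cells; filled symbols were called and open ones were not, and lines mark medians. Chemokines reach -7.20, receptors stay between -0.60 and 0.36, and the other lists hold genes on both sides of 0.

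Tested genes outside the chosen chemokine set were compared with AMCF-II by their centred log2 CPM profile over the 16 libraries. The 5 nearest were SAA3, C3, LOC100525396, RND1 and IGF1. Their root-mean-square differences from AMCF-II were 0.71, 0.95, 1.01, 1.26 and 1.44. LOC100525396 lies between AMCF-II and CXCL2 in their cluster, and whether it is itself a chemokine gene was not tested. Sharing of reads with AMCF-II was not tested either, so its likeness is uncertain to that extent. SAA3, an acute-phase serum amyloid A protein, averaged 4.8 CPM on plastic and 307 CPM on gel in male cells and 4.07 CPM on plastic and 312 CPM on gel in female cells. C3 is the central complement component and IGF1 a growth factor, and IGF1 averaged 34.4 CPM on plastic and 852 CPM on gel in male cells. For CXCL12 the nearest were PDE4B, CAPS2, SEMA3A, PHLDA1 and LOC106510651, at 0.73, 0.75, 0.77, 0.81 and 0.85. PDE4B, a cyclic AMP phosphodiesterase of inflammatory cells, changed by -3.15 in male (SE 0.35) and -2.38 in female cells (SE 0.34), and SEMA3A, a secreted guidance factor, by -2.98 (SE 0.29) and -2.82 (SE 0.29).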

How the data were processed

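Gene counts of 16 polyA RNA libraries were used as deposited, whole numbers per gene. Per the labels, an RNeasy Micro Kit was used for isolation and the mRNA KAPA HyperPrep kit for sequencing libraries. The submitters' processing notes name FastQC 0.11.5, Trimmomatic 0.36, HISAT2 2.1.0, SAMtools 1.3.1, featureCounts and the build Sscrofa11.1; the strand setting is not given in the sources used here. The table lists 29576 entries; 24 that carry numbers in place of names were dropped (0.169% of counts). RefSeq symbols were found for the remaining 29552, which gave coordinates on the same build. Transcript lengths were not used, so levels are not compared between genes.

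Members and gene lists were chosen with earlier results of these data known. The filter filterByExpr by group left 14530 genes. edgeR 4.0.16 in R 4.3.3 was fitted to 4 group means over all libraries with TMM factors of 0.896 to 1.124, and SE is the log2 change divided by the root of F. CPM are scaled by TMM. All members were named, and up to 3 called genes per list, direction and comparison by adjusted p. Picked after their values were seen were ADAM10, SULF1, RELA, TNF, IL1A, IL1B, IL1R1, CD14, LAPTM5, ACKR3, CXCR4 and other receptors. So were CDH5, VWF, ROBO4, CLDN5, ERG, CCL11, CCL25, MTHFD2L and the neighbours in the cluster. Profiles were compared as log2 CPM (prior count 2).

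No library copied another (chi-square per degree of freedom at least 9.93 within groups). Libraries of the same sex and number correlated in their deviations from group means by 0.13 to 0.49 on TMM-scaled values (0.10 for male 2 without TMM scaling), and number was taken as a pairing on that hint from the data. Alternatives were RLE factors, DESeq2 1.42.0, limma-voom (limma 3.58.1), other filters, only the 8 libraries compared, the replicate block and leaving out libraries. The fits were tested on simulated data. Figures were drawn with matplotlib 3.10.9.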

Additional observations from a re-analysis of the deposited data

Results flagged for a closer look

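Each of the 10 chemokines was examined in each group of 4 for a library far from the other 3, and chance flags about 1 in 20 groups of normally distributed values. That rate does not hold near 0 counts: with 3 libraries at 0, any count in the other is flagged. It therefore cannot be applied to the flags of CXCL10 and CXCL14 below. CXCL8 in female gel 4 was at 304 CPM, against 123 to 141 CPM in the other female gel libraries. CXCL16 in male gel 4 was at 241 CPM, against 158 to 169 CPM in the others, and in male plastic 3 at 69.4 CPM, against 60.6 to 61.7 CPM. CXCL14 in male plastic 4 was at 0.38 CPM, against 0 to 0.0444 CPM. CXCL10 stood apart in male plastic 4 (0.0423 CPM), male gel 4 (0.224 CPM) and female plastic 1 (0.222 CPM), which are 1, 5 and 5 counts. These 7 values come from 5 libraries, and 4 of the 5 carry the numbers male 4, female 1 or female 4. Within each surface, the libraries of these numbers have the highest CDH5. The part of endothelial cells in this was not tested.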

How the results depend on the processing

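In male cells 8 chemokines were called lower under all 25 alternatives, and in female cells 8 were in 24 of them and 7 with limma-voom, where CXCL12 was lost (adjusted p = 0.0557). Leaving out each library gave 8 in each sex. No chemokine was called between the sexes, or for the difference of surface changes, in any of the 24 alternatives run for each (0 called). With the replicate as a block, 8 chemokines were called in each sex and 0 for the difference of changes, so the block changed no call of a chemokine, though it did for EREG, AREG and ACKR3; replicate numbers are nested in sex, and female against male could not be blocked. Over all genes, leaving out each library gave 2859 to 3961 calls for plastic against gel in male cells and 2780 to 4444 in female cells, 15 to 17 for female against male on gel, 16 to 19 on plastic and 0 for the difference of changes. Without male 4, female 1 and female 4 on both surfaces (added after seeing the data), 1968 genes were called in female cells against 3476 with all libraries; fewer libraries were fitted. Without male gel 2 and female plastic 4, added likewise, 8 chemokines were called in each sex. CXCL10 could be fitted only without a filter on low counts (-2.10, adjusted p = 0.448 in male and -0.81, adjusted p = 0.755 in female cells). That setting also called CCL26 in male (adjusted p = 0.0355) and CCL4 in female cells (adjusted p = 0.0375). Depth limits CXCL10, CXCL14, and CCL5 and CCL20 on plastic.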
